A study of Mus musculus with 36 samples.

Results

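ATAC-seq measures how often a transposase cuts each stretch of chromatin, and thus how accessible it is. Of 71509 consensus peaks in mouse CD4 T cells, 304 (0.425%) were more accessible in every HP1γ-deficient library than in every control library of naive cells, of activated conventional T cells (Tconv) and of Tconv exposed to regulatory T cells (Treg) and had a mean that differed by at most 1 log2 unit between the naive and Tconv libraries of HP1α WT cells. Members were chosen on log2 CPM (the count of a peak scaled to a common library total, with a prior count of 2). In each condition the lowest HP1γ KO library had to lie above the highest control library, and the mean of the Tconv HP1α WT libraries minus that of the naive HP1α WT libraries had to lie from -1 to 1. That window held 41065 peaks. A further 649 peaks met the first criterion outside it, and 360 peaks in the window were lower in every KO library.

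HP1 proteins bind histone H3 methylated on lysine 9 and help to keep heterochromatin compact and genes silent. HP1α is encoded by Cbx5 and HP1γ by Cbx3. In T cells, H3K9 methylation and its readers have been linked to the stability of helper cell programs.

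The data set held 36 libraries in 12 groups of 3. HP1γ KO cells came from Hp1g flox/flox mice carrying a Cd4-cre transgene, which deletes the gene in developing T cells, and their controls were flox/flox littermates without Cd4-cre. HP1α KO cells came from a line in which the floxed Hp1a allele was deleted with CMV-cre, hence in all tissues, and their controls were Hp1a+/+ littermates. Mice were sex-matched littermates of 6 to 12 weeks on a mixed 129/Sv and C57BL/6 background. Naive cells were CD62L+ CD44-/low CD4+ cells of the spleen, enriched with a negative selection kit before transfer. Tconv were Vβ6+ cells recovered 3 weeks after transfer into irradiated hosts, C57BL/6 J or CD45.1+ B6, grafted with C57BL/6 J and semi-allogeneic B6D2F1 marrow, without or with ex vivo expanded Treg. The Tconv were sorted by flow cytometry as donor-specific cells. The study defines these as CD4+ Vβ6+ and negative for H-2Kd and for the marker of the injected Treg. Nothing in the labels says whether libraries of a group came from separate mice, so p-values measure the spread between these libraries. A lower signal from fewer cells of a type and from less open chromatin per cell cannot be told apart in bulk samples.

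Libraries held 1.49 to 96.8 M reads in peaks (M, mega), and 19.4 to 90.3 M in the HP1γ line. Those of HP1α Tconv with Treg held 1.49 to 50.7 M, and the study left out 3 of these 6 for low signal, so that 2 WT libraries and 1 KO library entered the tests and the lone KO library was assumed to vary like the other groups. The peak at the Cbx3 start lay between 7.39 and 7.50 log2 CPM in naive HP1γ KO libraries and between 7.42 and 7.48 in their controls, so this promoter peak did not check the deletion. All 8 T cell markers had a peak at their start, as against 2 of 6 B cell markers, 3 of 5 myeloid markers and 0 of 2 natural killer markers. Of 2 CD8 T cell markers, Cd8b1 had one, at 4.31 to 4.36 log2 CPM per kb in the naive groups, beside 4.31 to 4.43 for Cd3e, and at 1.03 to 2.76 in the others. Of 2 erythroid markers Gata1 had one, at 2.02 to 2.75 in the naive groups and at most 1.43 in the others.

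The sequences at the centre of 4 members with large differences are shown because they show how unlike each other these regions are, from a GC-rich start site to introns. Each is 300 bases of the plus strand of GRCm39, and capitals mark matches on either strand to the motifs searched, which were CCGGAAGT (ETS), TGTGGT (RUNX), TGANTCA (AP-1), TGACGTCA (CRE), CTTTGA (TCF/LEF), GGAAAA (NFAT), GGGCGG (SP/KLF) and CACGTG (E-box). The first lies in Cd4, the second in an intron of Cmbl near Cct5, the third at the start of the predicted gene Gm49700 and the fourth at the start of Kcnj2.
chr6:124861218-124861517: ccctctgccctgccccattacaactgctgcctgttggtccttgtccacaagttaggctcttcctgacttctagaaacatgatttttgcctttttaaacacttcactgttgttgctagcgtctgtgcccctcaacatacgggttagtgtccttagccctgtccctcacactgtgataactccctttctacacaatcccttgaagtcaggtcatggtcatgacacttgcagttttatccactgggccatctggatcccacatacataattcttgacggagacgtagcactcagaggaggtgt
chr15:31585505-31585804: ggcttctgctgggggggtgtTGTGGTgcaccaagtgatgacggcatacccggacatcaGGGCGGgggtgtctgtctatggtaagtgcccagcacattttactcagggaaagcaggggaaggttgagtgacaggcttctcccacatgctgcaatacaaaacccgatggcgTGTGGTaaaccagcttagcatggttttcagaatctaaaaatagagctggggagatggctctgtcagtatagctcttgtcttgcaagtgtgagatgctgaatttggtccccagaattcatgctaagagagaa
chr12:20664915-20665214: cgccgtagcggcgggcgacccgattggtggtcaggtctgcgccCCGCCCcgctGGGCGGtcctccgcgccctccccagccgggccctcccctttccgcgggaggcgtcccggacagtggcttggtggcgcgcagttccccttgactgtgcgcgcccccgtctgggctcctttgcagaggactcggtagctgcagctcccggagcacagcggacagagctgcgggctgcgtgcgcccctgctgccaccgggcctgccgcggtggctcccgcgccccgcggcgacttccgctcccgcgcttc
chr11:110956380-110956679: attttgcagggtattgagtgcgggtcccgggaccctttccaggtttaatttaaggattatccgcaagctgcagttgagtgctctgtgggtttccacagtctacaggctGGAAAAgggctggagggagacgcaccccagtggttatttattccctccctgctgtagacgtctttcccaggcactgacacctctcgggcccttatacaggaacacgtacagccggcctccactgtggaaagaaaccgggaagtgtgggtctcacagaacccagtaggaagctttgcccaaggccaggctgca

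The Cd4 window held no match, the Cmbl window 2 RUNX and 1 SP/KLF match, the Gm49700 window 2 SP/KLF matches and the Kcnj2 window 1 NFAT match. The Gm49700 window was 76% G and C with 39 CpG dinucleotides, and the Cd4 window had 4 CpG. Over the central 300 bases, 29.3% of members held the SP/KLF motif, against 16.5% of all peaks, 21.8% of the peaks in the window and 9.44% of the lowered peaks. The RUNX motif was in 26.3% of members, 30.0% of all peaks and 25.4% of window peaks, and the AP-1 motif in 11.2%, 13% and 9.04%, so for both the members lay below all peaks and above the window. In the same order, the NFAT motif was in 25.7%, 22.4% and 21.5%, the TCF/LEF motif in 19.1%, 21.9% and 19.9%, and the E-box in 4.28%, 6.02% and 6.17%. ETS motifs were rare, in 0.329%, 1.44% and 1.96%, as were CRE motifs, in 1.64%, 0.835% and 0.901%. A match is a description of letters and not of a bound factor.

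Many members lay at a start site of some gene, coding or not. Of the 304, 165 (54.3%) were within 1 kb of a transcription start site, against 34.0% of all peaks, 42.7% of the window, 32.5% of the lowered peaks and 25.6% of the peaks raised outside the window. For coding genes alone the median distance to the nearest start was 6098 bp, against 8357 bp over all peaks and 5314 bp in the window, and 20.4% of members lay over 50 kb from one, against 15% and 10.6%. The members away from any start were 80 intronic (26.3% of the 304), 53 intergenic (17.4% of the 304) and 6 exonic. Members were also wider, with a median of 1285 bp against 750 bp over all peaks and 940 bp in the window, as were the lowered peaks at 1205 bp, and the peaks raised outside the window had 890 bp. Their median GC content of 47.9% was close to the 48.0% of all peaks. Their CpG observed over expected ratio was 0.348, against 0.242 over all peaks and 0.271 in the window. In naive control cells of the HP1γ line their median level was 2.64 log2 CPM, near the 2.41 of the window. It was 1.40 over all peaks, 3.33 in the lowered peaks and -2.06 in the 649 peaks raised outside the window. These shares and medians are descriptions, with no test.

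**Figure D1:**
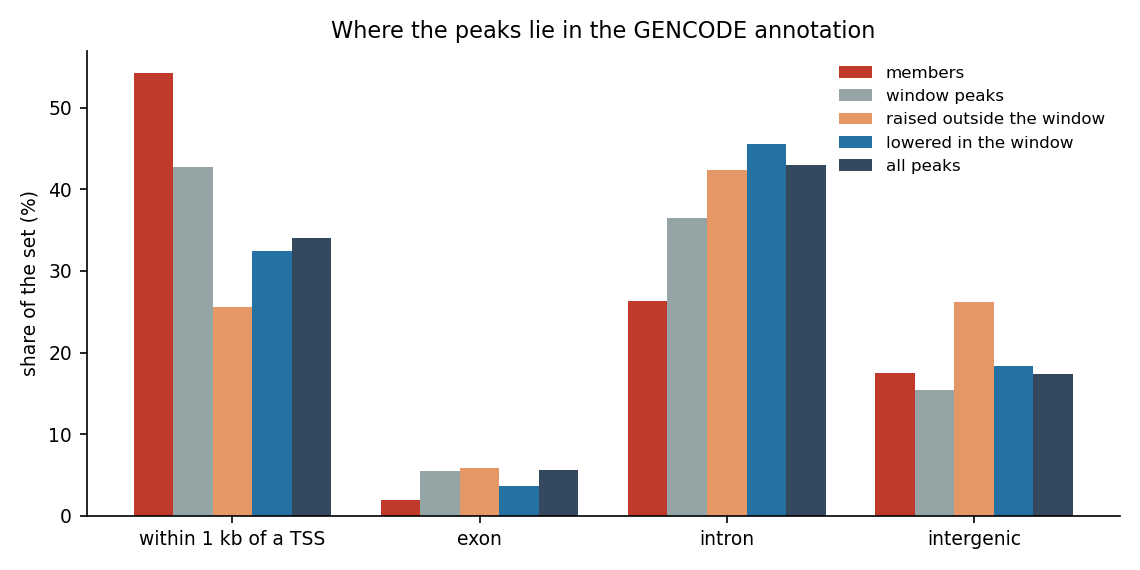
Share of each set of peaks (percent, vertical axis) by position in GENCODE (horizontal axis), with one bar per set. The members have the tallest bar within 1 kb of a start site, at 54.3%, and the peaks raised outside the window the lowest, at 25.6%.

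The size of the HP1γ difference is given as a description, since it chose the members. The median KO minus WT difference was 0.34 log2 CPM before transfer, 0.72 in Tconv and 0.70 with Treg added, where the medians over all peaks were 0.00, 0.09 and -0.14. The difference was over 1 for 26 members before transfer, for 94 in Tconv and for 92 with Treg, and in 24 members in all 3 conditions. It was smallest in naive cells for 228 members. Markers of other cell types also differed between the genotypes. The summed B cell marker signal, from Pax5 and Ebf1, was 3.15 log2 CPM per kb in naive HP1γ WT and 3.19 in KO, 3.56 and 3.89 in Tconv, and 3.61 and 4.19 with Treg. The myeloid sum was 4.39 and 4.17, 4.44 and 4.45, and 4.47 and 4.63. Within it Cebpa was at 2.24 in WT and 3.03 in KO Tconv and at 2.79 and 3.81 with Treg, where Spi1 was at 3.36 and 3.13 and Itgam at 2.33 and 1.02. Their part in the difference was not tested. In edgeR, 12 members were called in naive cells (background over all peaks called higher 0.133%), 61 in Tconv (1.69%) and 113 with Treg (6.48%), from which nothing is read because the rule used these contrasts. Whether the difference itself changed with condition was fitted as an interaction, on the libraries that chose the members, so it too is a description. In edgeR, 0 members passed for Tconv minus naive and 0 for Tconv with Treg minus Tconv (background 0.014% and 0.0014%), with 44 and 43 members (14.5% and 14.1%) at an unadjusted p under 0.05, beside 9.51% and 12.8% of all peaks. The 43 became 79 without Treg-exposed HP1γ WT replicate 1 and 28 without Treg-exposed HP1γ KO replicate 1. It was 19 with library size alone and 12 with only the groups compared. DESeq2 called 7 and 1, and 1382 and 799 of all peaks. Without Tconv HP1γ KO replicate 1 or Tconv HP1γ WT replicate 3, edgeR called 1 for Tconv minus naive.

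**Figure D2:**
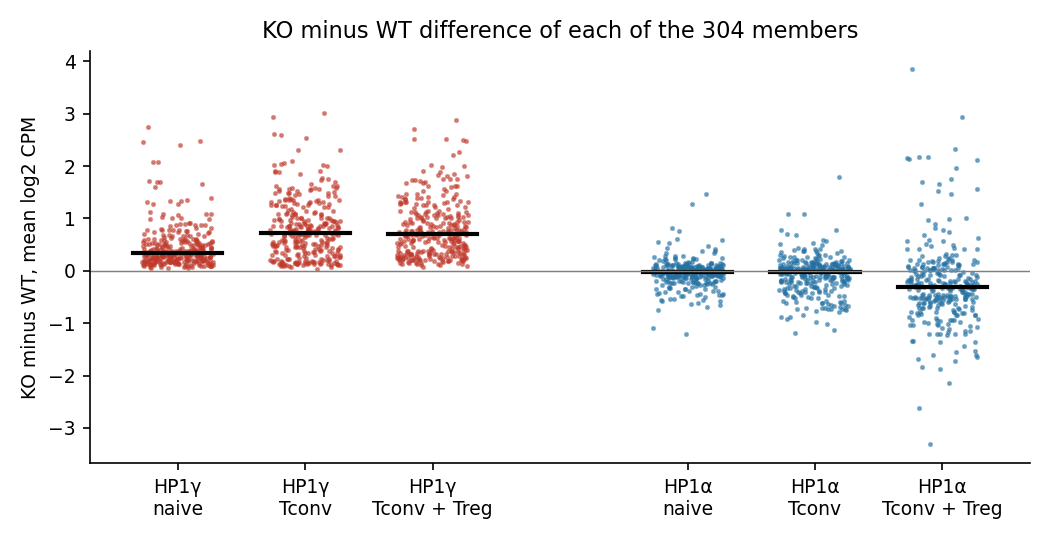
KO minus WT difference in mean log2 CPM (vertical axis) of each of the 304 members (points) in 3 conditions of the HP1γ and the HP1α line (horizontal axis), with medians as black lines. The HP1γ points all lie above 0 by the rule, and the HP1α medians, over all 18 libraries of that line, are -0.02, -0.02 and -0.32.

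The widest separation was at Cd4, which encodes the CD4 co-receptor. The peak at its start (chromosome 6, 124856622 to 124866115) read 6.57, 6.57 and 6.65 log2 CPM in naive controls and 9.33, 9.36 and 9.32 in naive KO libraries. In Tconv it read 6.77, 6.66 and 6.77 in controls and 9.19, 9.46 and 9.41 in KO, and with Treg 6.71, 6.69 and 6.44 against 8.87, 9.19 and 9.31. In each condition the lowest KO library stood at least 2.16 log2 units above the highest control. The other 4 peaks on the gene were no members. A second member, 2071 bp from the nearest Cd4 start (chromosome 6, 124876829 to 124879558), differed by 1.69, 1.26 and 1.39. The KO cells carry a transgene driven by Cd4 sequences that their controls lack, and its reads and those of the endogenous locus cannot be told apart. In the HP1α line, whose deletion used CMV-cre, the first peak differed by 0.01, 0.02 and 0.29.

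At the member in the intron of Cmbl nearest Cct5, a subunit gene of the TRiC chaperonin (chromosome 15, 31585261 to 31586050), naive controls read 1.19, 0.70 and 0.69 and naive KO libraries 3.17, 3.43 and 3.43. In Tconv the values were 0.88, 0.62 and 0.83 against 3.44, 2.77 and 3.05, and with Treg 1.23, 1.19 and 1.49 against 3.37, 2.60 and 3.20. In Tconv and with Treg the KO libraries spread more widely than the controls. Kcnj2 encodes an inwardly rectifying potassium channel. At its start (chromosome 11, 110955511 to 110957550), controls read 3.71, 3.79 and 3.84 in naive cells and 2.60, 2.38 and 2.64 in Tconv, and KO libraries 4.53, 4.58 and 4.65 and then 3.69, 3.81 and 3.90. The levels were lower in Tconv than in naive cells in both genotypes. That the genotypes did not overlap in either condition follows from the rule.

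Other members with wide separation were an intergenic peak near Gm8986 and Cfap53, a cilium gene, with differences of 2.08, 3.01 and 2.71, and a start site of Asap2, which encodes an Arf GTPase-activating protein, with 0.87, 1.18 and 1.10. Peaks nearest Gm65161, Gm6291, Gm49327 and Gm49214 differed by 1.33, 1.27, 1.07 and 0.91 in naive cells. At the other end, the members with the smallest separation, nearest Gm31460 and Gm41040, were inside by 0.000635 and 0.000734 log2 CPM, and the peaks nearest Ankrd6 and Ccdc59 had gaps of -0.000142 and -0.000422. At the activation bounds, members nearest Gm22658 and Serinc5 had 0.99 and 0.99 and the peaks just outside 1.02 and 1.03, and those near Ankrd55 and Gm75424 had -0.997 and -0.992 with -1.02 and -1.02 just outside.

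**Figure D3:**
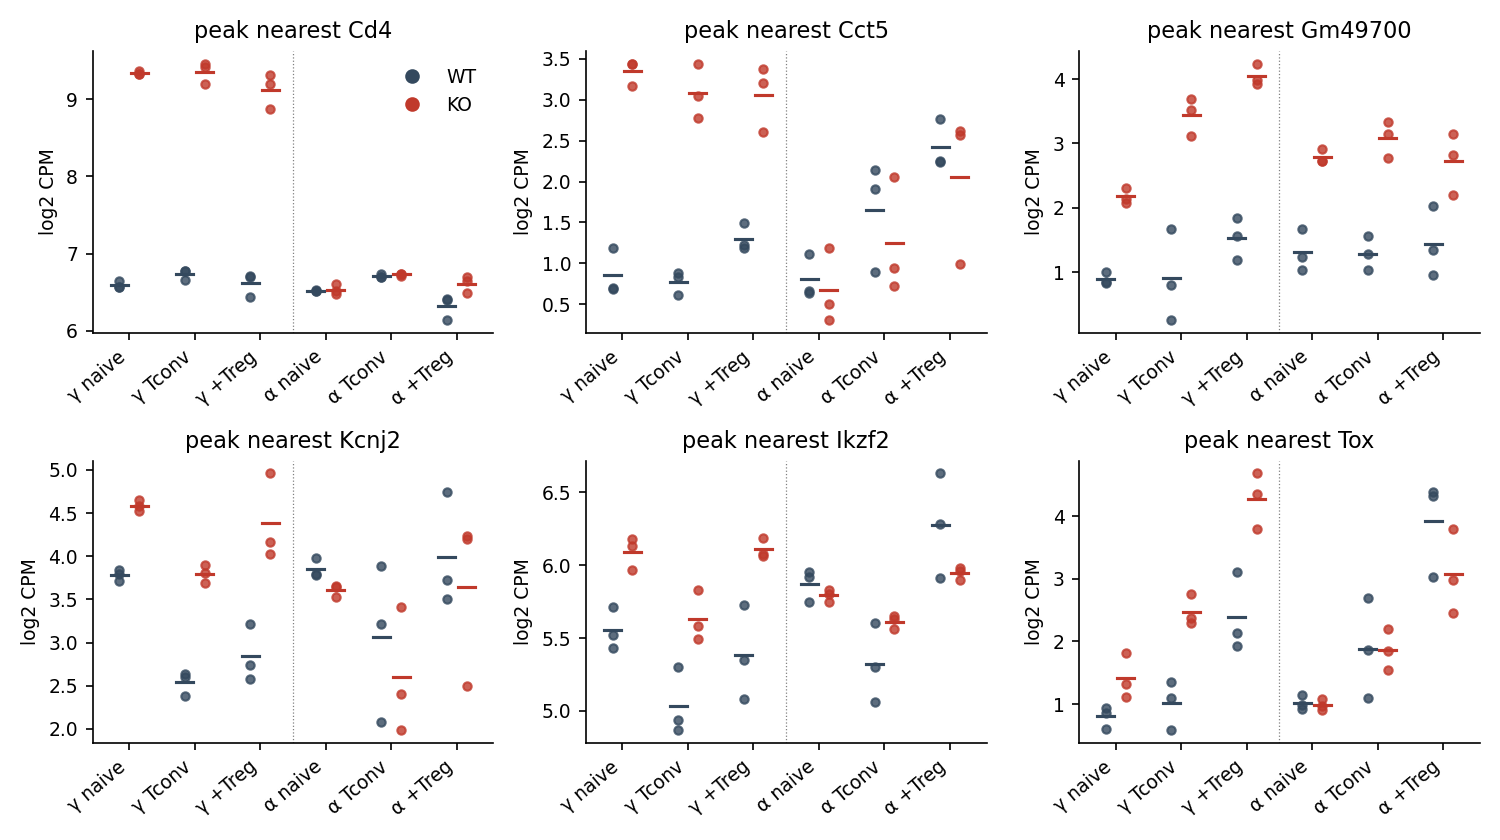
Log2 CPM (vertical axis) of 6 members in all 36 libraries (points) by line and condition (horizontal axis), with WT in dark blue, KO in red and group means as bars. At Cd4 the HP1γ KO libraries sit at 8.87 or higher and all others at 6.77 or lower, and at Gm49700 the HP1α KO libraries also lie above their controls.

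Regulators of T cell exhaustion were represented by Tox and Ikzf2. TOX is a nuclear factor known for driving exhaustion, and 3 members lay in its introns. The start of Tox was the nearest for 2 of them, called the first and the second Tox member here (chromosome 4, 6940371 to 6941880 and 6945441 to 6945780), and that of the noncoding gene Gm11802 for the other one (6816891 to 6819250), which was named after its values were seen. At the first, controls read 1.09, 0.59 and 1.35 in Tconv and 3.10, 2.14 and 1.92 with Treg, and KO libraries 2.30, 2.76 and 2.37 and then 4.68, 3.79 and 4.36. Its KO minus WT difference was 0.61 before transfer, 1.47 in Tconv and 1.89 with Treg. That of the second was 0.75, 0.96 and 0.76, and that of the Gm11802 member 0.33, 0.54 and 0.87. Ikzf2 encodes Helios, and the member at its start (chromosome 1, 69724591 to 69729020) differed by 0.54, 0.59 and 0.72. In all, 3 of the 162 peaks nearest a gene on a list of 20 inhibitory receptors and exhaustion regulators were members (1.85%, against 0.425% of all peaks). Another 8 of the 162 were raised outside the window, as were 0.908% of all peaks. By the nearest coding start, 6 of 369 peaks were members (1.63%) and 12 were raised outside the window. An exhaustion signature that the study took from other publications had 470 peaks, of which 12 were raised outside the window and 6 were members (1.28%). Beside Tox and Ikzf2 the 6 members were in introns of Gas2 and Izumo1r, the latter encoding the folate receptor FR4, with Tconv differences of 0.86 and 1.12, and at the start of Tceal9, with 0.37. These 3 genes were named after their values were seen.

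A list of 20 genes for HP1 proteins and H3K9 methylation had 1 member among 36 peaks, at the start of Atf7ip, whose product supports the H3K9 methyltransferase SETDB1, with differences of 0.19, 0.25 and 0.36. Cbx3 and Cbx5 had none. Effector regulators and cytokines had 0 members among 72 peaks, naive state regulators 0 among 114 and a Th1 signature 0 among 351. Assigning peaks to the nearest protein-coding start gave these lists 0, 1 and 1. The study's own HP1γ list, chosen on these samples and hence no independent evidence, had 20 members among 797 peaks (2.51%), and its HP1α list 0 among 247. Vomeronasal receptor genes had 2 among 41 peaks and Zfp zinc finger genes 4 among 617 (0.648%). Predicted genes named Gm had 119 members among 28294 peaks, or 0.421%, beside 0.425% of all peaks.

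Most members had no other member within 50 kb. Linking members within 50 kb gave 281 runs, of which 19 held 2 or more members (42 members, 13.8%) and 3 held 3 or more. Among the lowered peaks 28.1% were in such runs and among the peaks raised outside the window 25%. Each of these sets has another size, so the shares are descriptions. By chromosome, members were 0.898% of the peaks on chromosome 19 and 0.820% on chromosome 13, and 0.180% on chromosome 8. A count in 1 Mb windows found 11 windows with 3 or more members, 20 with 3 or more lowered peaks and 0 with both. These 11 windows held 12.5% of members and 0.797% of all peaks. Within 1 Mb of another member lay 144 members (47.4%). The like share was 61.4% for the lowered peaks and 62.1% for the peaks raised outside the window.

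The longest run had 4 members over 65.44 kb of chromosome 15 (31520611 to 31586050), over Marchf6, a ubiquitin ligase gene, and Cmbl, with 9 peaks in its span. Within 150 kb of its centre lay 24 peaks, of which 5 were members. Of the 19 others, 15 differed by over 0.5 log2 CPM in Tconv and 2 by 0 or less, with a median of 0.89. With Treg 9 differed by over 0.5 and 8 by 0 or less (median 0.12), and before transfer 9 and 3 (median 0.48). Near Gm49214 one such peak differed by 3.38, 3.05 and 1.75. Runs of 3 members lay at Cfap53 on chromosome 18 (74415531 to 74457840), with Tconv differences of 0.85, 1.69 and 2.58, and in and beside Atrnl1 on chromosome 19 (58075651 to 58133080), with 1.57, 1.11 and 0.56. A pair lay in an intron of Serinc5, a restriction factor gene on chromosome 13, with 1.01 and 1.45. In the HP1α line the same 4 members of the chromosome 15 run had a median difference of -0.05 in naive cells and -0.37 in Tconv.

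**Figure D4:**
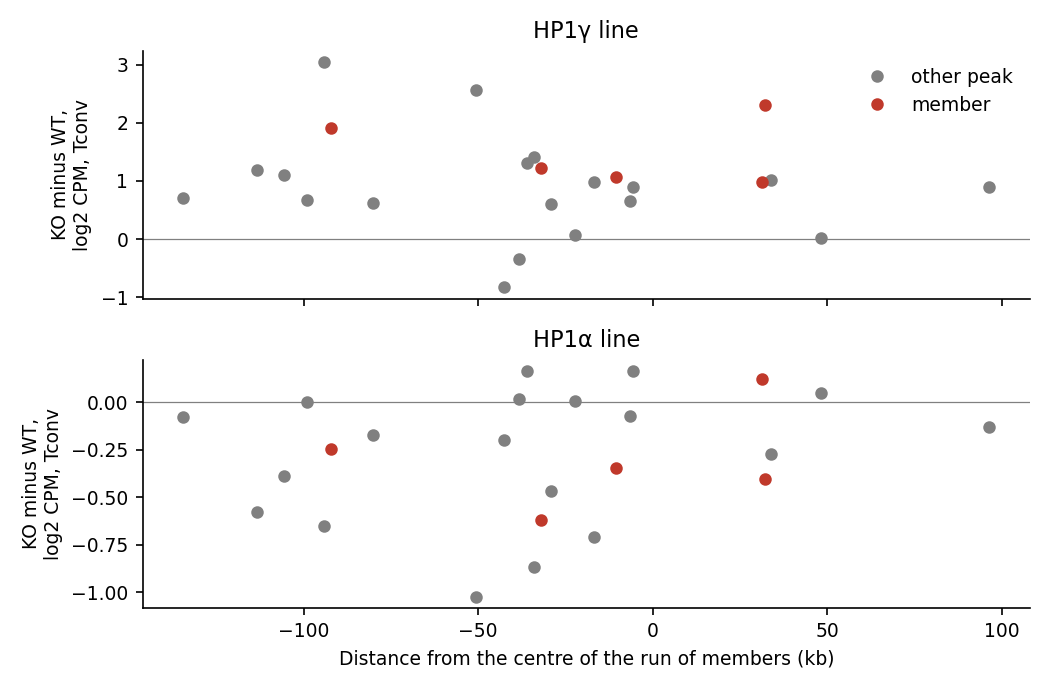
KO minus WT difference in Tconv, in mean log2 CPM (vertical axis), against distance in kb from the centre of the run on chromosome 15 (horizontal axis), for the HP1γ line (top) and the HP1α line (bottom), with members in red and other peaks in grey. In the HP1γ line 20 of 24 peaks exceed 0.5.

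The HP1α line asks whether the same regions open without HP1α. In naive cells the median difference of the members was -0.02 log2 CPM, and edgeR called 1 of 304 (background 0.00559%). In Tconv the median was -0.02 and 1 was called (0.021%). At an unadjusted p under 0.05 were 5.59% of members in naive cells (1.17% of all peaks and 0.998% of window peaks), 3.95% in Tconv (4.82% and 2.64%) and 28.6% with Treg (16.3% and 14.4%). The called member in naive cells and in Tconv was in both cases the start of Gm49700 (chromosome 12, 20664591 to 20665540). It read 1.67, 1.04 and 1.23 in naive HP1α WT libraries and 2.72, 2.91 and 2.72 in KO, and 1.03, 1.28 and 1.56 against 3.33, 3.14 and 2.77 in Tconv. With Treg it read 0.95, 2.03 and 1.34 against 3.14, 2.82 and 2.2. HP1α KO libraries were above WT in every condition, as they were in the HP1γ line. The edgeR log2 fold change was 1.51 in naive cells (adjusted p = 0.00589) and 2.08 in Tconv (adjusted p = 0.00333). It was the 1 member with every HP1α KO library above every WT library in all 3 conditions, as were 9 of all peaks, and 0 members and 12 of all peaks were below in all 3. In naive cells the count was 0 without WT replicate 2 or 3. In Tconv it was 0 without WT replicate 1, and 2 without WT replicate 2 or KO replicate 1. At an unadjusted edgeR p under 0.05 were 12 members in Tconv, and 47 without Tconv WT replicate 1.

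Libraries that did not overlap between HP1α KO and WT were counted over all 18 libraries of that line. In naive cells 15 members were higher in every KO library and 21 lower (2.95% and 3.39% of all peaks), in Tconv 17 and 9 (2.71% and 4.84%), and with Treg 7 and 56 (6.72% and 4.75%). With Treg, 123 of the 649 peaks raised outside the window were lower in every KO library and 9 higher. The lower ones were 18.95% of that set, beside 18.42% of members. Those 649 peaks had a median edgeR log2 fold change of -1.09 with Treg, and of -0.78 over all 18 HP1α libraries. Lower values in the HP1α KO were thus not particular to the members. In Tconv with Treg the called members were lower in the HP1α KO. Of the members, 17 were lower in KO than in WT (background called lower 1.42%) and 0 higher, and the median edgeR log2 fold change was -0.51 against -0.11 over all peaks. Mcoln3, a lysosomal cation channel gene, fell by 2.34 (edgeR adjusted p = 0.00125). Its intronic member read 4.53, 4.24 and 4.18 in the WT libraries and 2.12, 3.36 and 2.88 in KO, so the groups did not overlap, although WT replicate 3 and KO replicates 2 and 3 were not in the test. A member in Mad1l1, a spindle checkpoint gene, fell by 3.06 (edgeR adjusted p = 0.00378), and one nearest Kcnq3, a potassium channel gene, by 1.79 (edgeR adjusted p = 0.00992). Over all 18 HP1α libraries the Mcoln3 and Mad1l1 members were still called (edgeR adjusted p = 0.00251 and 0.0127), and the Kcnq3 member was not, at -1.15 (edgeR adjusted p = 0.13). The first Tox member fell by 1.31 (edgeR adjusted p = 0.0303), and by 1.02 with an edgeR adjusted p of 0.163 over all 18 HP1α libraries, where WT read 4.32, 4.39 and 3.03 and KO 2.98, 3.8 and 2.45 and overlapped. The second had a log2 fold change of -0.22 (edgeR adjusted p = 0.894) and of 0.16 over all 18 (edgeR adjusted p = 0.959). The result rested on few libraries. The median member log2 fold change of -0.51 became -0.39 with library depth as a covariate and -0.40 with only the groups compared. The count was 5 with all 18 libraries (background 0.729%), 9 without WT replicate 2, 0 without WT replicate 1 and 0 with library depth as a covariate or only the groups compared, and the median was -0.06 without WT replicate 1. Marker values were computed over all 3 libraries of each group, so they include the libraries left out of the test. The summed signal at the starts of the 8 T cell markers was 6.46 log2 CPM per kb in WT and 6.91 in KO. Thy1 was at 2.45 and 3.54. The B cell sum was 4.71 in WT and 4.30 in KO, with Pax5 at 4.05 and 3.30 and Ebf1 at 3.28 and 3.31, and the myeloid sum 4.66 and 4.96, with Spi1 at 2.42 and 3.59, Itgam at 2.34 and 2.75 and Cebpa at 3.90 and 3.63. The part of these differences in the result was not tested.

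Some members gained signal on exposure to Treg. In HP1α WT cells 66 were higher with Treg than without and 0 lower in edgeR (background called higher 4.92%), and 254 of the 649 peaks raised outside the window rose (39.1%), as against 0 of the 360 lowered peaks, of which 53 fell. The median member log2 fold change was 0.73, against 0.10 over all peaks. Mcoln3 rose by 3.03 (edgeR adjusted p = 1.92e-05) and the first Tox member by 2.25 (edgeR adjusted p = 0.000169), from 1.86, 2.69 and 1.09 to 4.32, 4.39 and 3.03, the last of which was not in the test. Ikzf2 rose by 1.06 (edgeR adjusted p = 0.00611). The Tconv HP1α WT libraries also set the activation window, so these counts and p-values are descriptions. The count was 30 without Tconv WT replicate 1, 41 without Treg-exposed WT replicate 2, 31 with depth as a covariate and 0 without Treg-exposed WT replicate 1, which leaves only the library of 1.49 M reads and a median of 0.24.

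In HP1γ KO cells 48 members rose with Treg and 0 fell (edgeR, background called higher 6.10%), among them Commd1, a copper and NF-κB regulator gene, by 1.83, Chd7, a chromatin remodeller gene, by 1.85 and the death receptor gene Fas by 1.08, named after their values were seen. The count was 15 with only the groups compared (607 of all peaks in either direction). Of the 48, 27 were among the 66 of HP1α WT cells (56.2% of the 48 and 40.9% of the 66). Over all peaks 2022 were shared, 46.4% of those of HP1γ KO and 57.4% of those of HP1α WT cells. The HP1γ libraries chose the members, so their counts are descriptions. In HP1γ WT cells 2 members rose (edgeR, background called higher 0.0685%), the second Tox member and one near Gm56501 in Ldlrad4, a regulator of TGF-β signalling, with 4 under a replicate block, 17 in DESeq2 and 0 with depth as a covariate. That count was 0 without Tconv replicate 1 or 2 or Treg-exposed replicate 1 or 3, 4 without Treg-exposed replicate 2 and 5 without Tconv replicate 3. In HP1α KO cells 2 rose (0.264%), the first Tox member and the Gm11802 member in another Tox intron, with 10 over all 18 libraries (background 0.873%), 1 without Tconv replicate 2, 4 without Tconv replicate 3, and 0 in DESeq2, with only the groups compared or with the earlier edgeR estimate. The difference in this response between genotypes is the second interaction above for the HP1γ line, from which nothing is read, and was not tested for the HP1α line. Markers of cell types are given beside these counts, over all libraries of each group, including those left out of the tests. The summed T cell marker signal in HP1α WT cells was 7.03 log2 CPM per kb without and 6.46 with Treg, with Cd3e at 4.22 and 3.18 and Thy1 at 3.57 and 2.45, and 7.10 and 6.91 in HP1α KO. The summed B cell marker signal rested on Pax5 and Ebf1 alone. It was 3.44 without and 4.71 with Treg in HP1α WT, 3.66 and 4.30 in HP1α KO, 3.56 and 3.61 in HP1γ WT, where Pax5 was at 2.10 and 2.47 and Ebf1 at 2.91 and 2.73, and 3.89 and 4.19 in HP1γ KO. Myeloid markers summed to 4.59 and 4.66 in HP1α WT, with Cebpa at 2.90 and 3.90, Spi1 at 3.45 and 2.42 and Itgam at 2.49 and 2.34. Of the Treg markers, Foxp3 was at 4.02 without and 3.55 with Treg in HP1α WT and at 4.20 and 4.09 in HP1γ KO. Ikzf2, whose start peak is a member, was at 3.17 and 4.12, and at 3.48 and 3.96. Their part in the result was not tested.

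**Figure D5:**
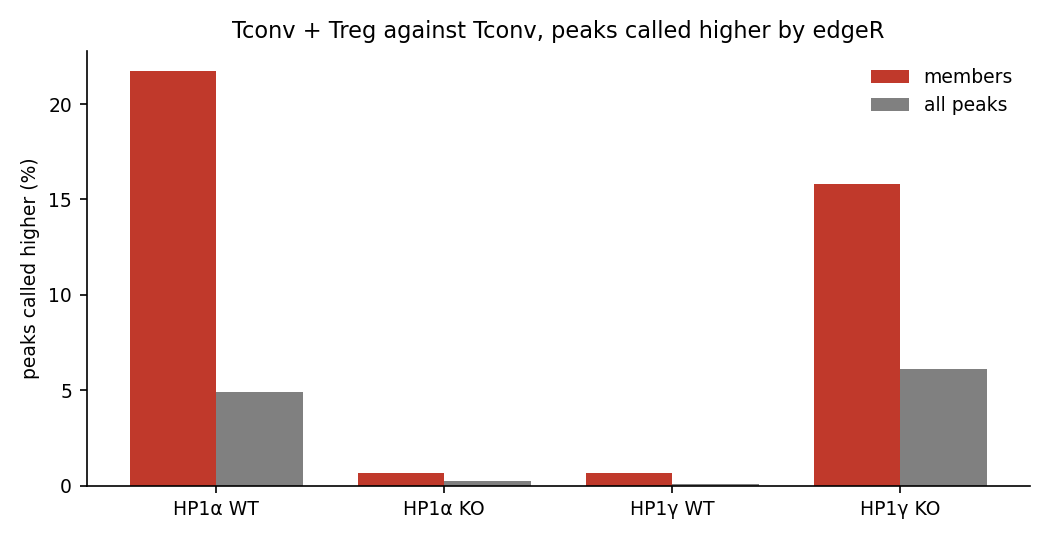
Share of peaks called higher in Tconv with Treg than in Tconv (percent, vertical axis) among the 304 members and among all peaks, in 4 genotypes (horizontal axis). The members reach 21.7% in HP1α WT and 15.8% in HP1γ KO cells, and 0.658% in HP1α KO and HP1γ WT cells.

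The calls between naive cells and Tconv are descriptions, because HP1γ libraries of both conditions chose the members and the window bounded the same change in HP1α WT cells. In edgeR, 46 fell and 3 rose from naive to Tconv in HP1γ WT cells (background lower 22% and higher 24.5%), 29 fell and 12 rose in HP1γ KO cells (20.6% and 22.4%), and 30 fell and 6 rose in HP1α KO cells (19% and 23.5%). Over the peaks in the window 18% fell and 2.23% rose in HP1γ WT, 16.2% and 2.30% in HP1γ KO, and 13.2% and 0.957% in HP1α KO cells, so falls outnumbered rises among window peaks as a whole, and members fell in 15.1%, 9.54% and 9.87%. In HP1α KO cells the split moved with the setting, to 19 lower and 12 higher with library size alone, 21 and 13 with all 18 libraries, 18 and 12 without Tconv replicate 1, 21 and 13 without Tconv replicate 2, 21 and 14 without naive replicate 1, and 32 and 3 without naive replicate 2. In HP1γ WT cells the 3 risers became 5 without Tconv replicate 1 or 2 or naive replicate 1, and 1 with only the groups compared. The member in Ldlrad4 fell by 2.28 in HP1γ WT and by 1.62 in HP1γ KO cells, and the Gm49214 member by 1.98 and 1.06 (edgeR). Of the 30 members that fell in HP1α KO cells, 25 also fell in HP1γ WT cells (83.3% of the one and 54.3% of the other). Among window peaks these shares were 88.3% and 64.5%. In HP1γ KO cells 17 of the 30 also fell (56.7% of the one and 58.6% of the other), beside 77.7% and 63.4% among window peaks.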

How the data were processed

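The authors deposited one table of raw, unnormalized ATAC-seq read counts over consensus peaks, from which all values here were computed. Per the study's methods, reads were trimmed (Trim Galore 0.6.7), aligned to GRCm39 and deduplicated, peaks were called per sample and merged, and reads were counted with featureCounts 2.0.3. Of 71512 rows 3 had no width and were left out, and 0 per-sample columns were unused. Library totals were 1.49 to 96.8 M reads, which limits precision most in the HP1α Tconv with Treg groups.

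Log2 CPM used library totals and a prior count of 2, scaled by each total over the mean of the 36 libraries. Marker values and differences in mean log2 CPM used all 36 libraries, including those the study left out. The HP1α (15 libraries kept by the study) and HP1γ (18) lines were fitted apart on all peaks with edgeR 4.0.16 in R 4.3.3 (glmQLFTest, a quasi-likelihood test of change in either direction), after filterByExpr and TMM scaling, with Benjamini-Hochberg adjustment over all peaks. Calls needed a log2 fold change beyond 1 in either direction together with an adjusted p below 0.05. The biological coefficient of variation was 26.6% and 22.2%. Alternatives were DESeq2 1.42.0, library-size scaling, no filter, a replicate block, a depth covariate, other sets of libraries and each library left out, and, chosen after seeing the data, the earlier quasi-likelihood estimate of edgeR, an unscaled prior count, all 18 HP1α libraries with a replicate block, and leaving out members near Cd4 and Cbx3. The scripts were tested on simulated counts. Genes are the nearest start site in GENCODE vM39.

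The members and lists were chosen with earlier results of these data known. Named were the 12 members with the largest gap, those nearest a gene on 5 function lists, those of the 4 longest runs (ties by shortest span), up to 6 called in the HP1α line, and those at the bounds of the rule. Others are said to have been named later. Whether replicate numbers pair libraries was checked by the correlation of their deviations from group means. All 3 pairs exceeded 0.1 for HP1α KO and WT naive cells (lowest 0.252), HP1γ KO and WT with Treg (lowest 0.146), and HP1γ WT with and without Treg (lowest 0.201), and in none of the other 10 comparisons. The labels do not say what the numbers mean.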

Additional observations from a re-analysis of the deposited data

How the results depend on the processing

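The rule gave 299 and 311 members with prior counts of 0.5 and 5, 278 with an unscaled prior count, 332 with the window set on HP1γ WT libraries, 164 with a window from -0.5 to 0.5 and 953 without one. Scaling totals by TMM gave 337, of which 192 were among the 304 (63.2%), so membership depends on the scaling. Leaving out each library gave 316 to 565, the most without Tconv with Treg HP1γ WT replicate 3, the shallowest of the line. Calls in HP1α KO against WT went from 1 to 0 in naive cells and in Tconv with only the groups compared or the earlier edgeR estimate (0 to 1 and 0 to 2 with a library left out), and were the same without members near Cd4 and Cbx3. With Treg the 17 became 27 under the replicate block, 11 with all 18 libraries and the block, 5 with all 18, 1 with the earlier estimate, and 0 with the depth covariate or only the groups compared (0 to 9 with a library left out). Treg exposure in HP1α WT gave 31 with the depth covariate (0 to 73); in HP1α KO 10 with all 18, 17 with the block added, 4 with the depth covariate, 1 with library size alone and 0 with the earlier estimate, only the groups compared or DESeq2 (1 to 4); in HP1γ WT 4 with library size alone or the replicate block, 7 with the earlier estimate, 17 in DESeq2 and 0 with the depth covariate or only the groups compared (0 to 5); and in HP1γ KO 15 with only the groups compared (32 to 57). The totals of members called in either direction between naive and Tconv stayed within 1.5 times under every alternative run, although their directions did not (30 to 42 in HP1α KO, 45 to 56 in HP1γ WT and 37 to 43 in HP1γ KO with a library left out). The interaction counts of 0 became 1 for Tconv minus naive with only the groups compared, and 7 and 1 in DESeq2 (0 to 1 and 0 to 0). The replicate block moved no other count by over 1.5 times. The causes were not tested.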
